A study of Oryctolagus cuniculus with 54 samples.

Results

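The genes described here are the 100 that varied most between newborn rabbits delivered at term, chosen from their measured values in 2 separate sequencing runs. Expression was written as log2(CPM+1), where CPM is the count of a gene per 1000000 counted reads of its library. The SD of that level was taken over the 3 term newborns of run 1 and over the 3 other term newborns of run 3, and genes were ranked by the smaller of both SDs. Of 29587 genes in the table, 8173 had a mean level of at least 2.6 in the newborns of both runs, which is 5.06 CPM, and the 100 highest ranked of these are the members.

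The libraries came from right lungs of New Zealand White rabbits, homogenised whole, so every level is an average over all cell types of the lung, and fewer cells of a type cannot be told apart from less RNA per cell. Per the study's methods each lung of a time point came from a pup of a different dam, and whole lungs were used on the earliest fetal days. Counts were made from QuantSeq libraries, which read the 3′ ends of transcripts. In all there were 54 libraries of 45 animals, 6 of which were sequenced again in other runs. Fetal pups were taken by C-section on gestational days 20, 23, 25, 27, 28 and 29 (F20 to F29). Term pups were born naturally on day 31, stayed with their mothers in room air, and were sampled at birth (T31, 6 animals) and 4, 6 and 11 days later (T35, 3 animals; T37, 4 animals; T42, 3 animals). Preterm pups were delivered by C-section on day 28, kept in incubators at 21% oxygen on milk replacer, and sampled 1 h after delivery (P0) or after 3 (P3) or 7 (P7) days, with 3 animals each. Animals are named by group and animal number, and the same number in 2 groups does not mark the same animal.

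At birth the lung changes from a liquid-filled organ to an air-breathing one. Labour, the first breaths, a surge of stress hormones and the clearing of lung liquid follow each other within a short time. In outbred animals the level of some transcripts is also set by inherited variants and differs between individuals of the same age. The genes are given by Ensembl identifier, since the files used here do not pair identifiers with names. For the same reason no gene could be assigned a function and no cell type marker could be looked up, so the tissue label was not checked against markers.

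The T31 libraries held 6514089 to 8073755 counted reads, within the 5771693 to 8073755 of all libraries, and 15176 to 16070 genes with at least 1 read. The smaller T31 SD of the members ran from 0.954 to 3.34 with a median of 1.20. In run 1 the median SD of the members was 1.30 against 0.244 for all 8173 genes, and in run 3 it was 1.37 against 0.320. These values were used to choose the members and are given as a description only. The newborn with the highest level exceeded the lowest by a median of 5.77-fold in run 1 (3.20- to 195-fold) and 6.50-fold in run 3 (3.29- to 252-fold), on the scale of CPM+1. The SD that counting of reads alone would give was between 0.0234 and 0.189 for the members, and the T31 SD was at least 5.80 times that value in either run. The last 5 members by rank had a smaller SD of 0.961 to 0.954, and the 5 genes just outside the list had 0.948 to 0.941.

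Most members divided into 2 opposite sets. Average linkage of their levels in the 6 newborns, centred within each run, with 4 clusters asked for, gave a cluster 1 of 53 members, a cluster 2 of 43 members and 2 clusters of 2 members each. The median pairwise Pearson's r over the 6 newborns was 0.81 within cluster 1 and 0.60 within cluster 2. Across the newborns the sets ran against each other, with a median r of -0.75 between their members, counted without the members with 2 levels of expression that are described further on. The median over pairs of all genes was 0.03. Since the clusters were cut from the same values, these figures are a description and no separate result.

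**Figure D1:**
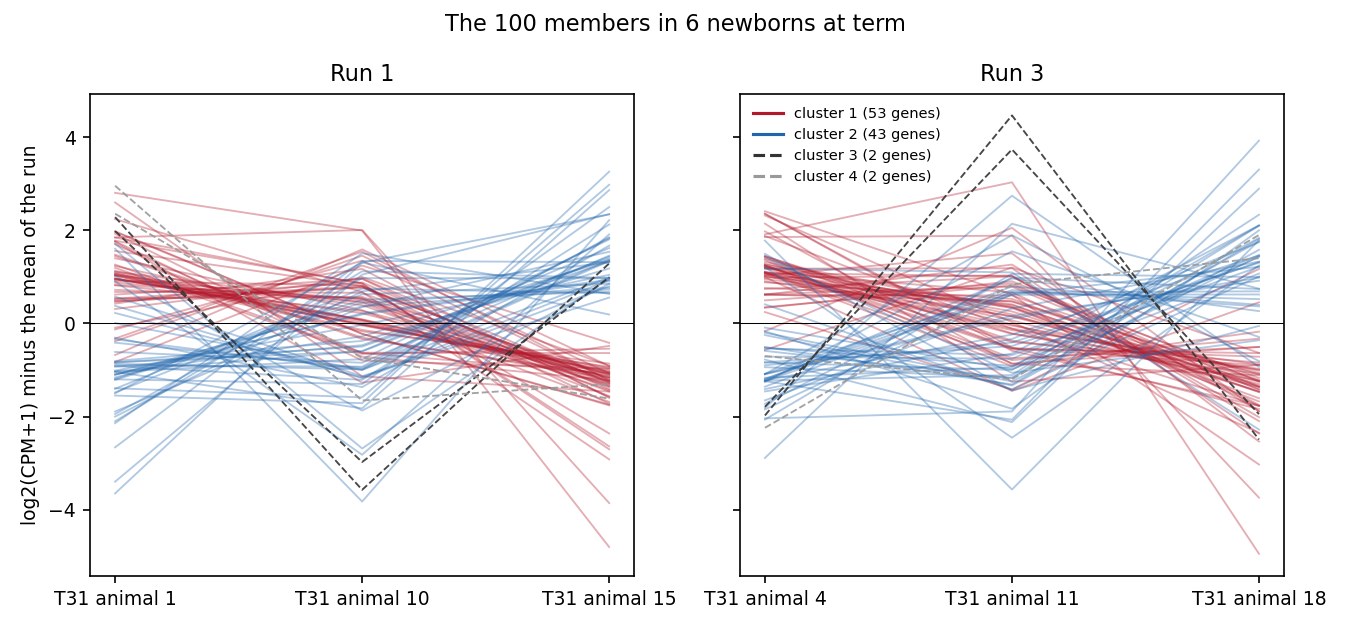
Level of each of the 100 members in the 3 term newborns of run 1 (left) and of run 3 (right), as log2(CPM+1) minus the gene's mean over the 3 animals of the run; each line is 1 gene, coloured by cluster. Cluster 1 lines (53 genes) mostly fall from left to right in both panels and cluster 2 lines (43 genes) mostly rise, while the 2 genes of cluster 3 turn in opposite ways in the 2 runs.

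Newborns of the 2 runs could be matched by their extremes, in the members as in all genes. Of the 45 members that were highest in T31 animal 1 among the newborns of run 1, 35 were also highest in T31 animal 4 among those of run 3. Of the 51 members lowest in T31 animal 15, 43 were also lowest in T31 animal 18. These are 77.8% and 84.3%, and among all 8173 genes the same shares were 72.9% of 3081 and 69.9% of 3227, so the shared order was found in all genes too. These T31 values chose the members and were used to match the animals, so the shares are a description and no separate result. With that limit, the members were further from all genes in the opposite extremes. Of the 34 members highest in T31 animal 15, 27 were also highest in animal 18, against 1493 of 2863 among all genes. Of the 25 members lowest in T31 animal 1, 18 were also lowest in animal 4, against 1580 of 2838. T31 animal 18 stands apart as a library, with the largest total, the fewest genes detected and the lowest TMM scaling factor of all libraries, 0.829. With totals scaled by TMM, an alternative chosen after seeing the data, the shares were 77.8% and 80.4% for the members and 67.0% and 59.9% for all genes.

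Cluster 1, averaged over its 48 members without 2 levels, stood at 5.77 in T31 animal 1, 5.20 in animal 10 and 3.64 in animal 15. The newborns of run 3 gave 5.67 in animal 4, 4.71 in animal 11 and 3.33 in animal 18. These levels, like all T31 levels of the clusters given here, were used to choose and divide the members and are a description. With TMM-scaled totals animal 18 was at 3.56 in cluster 1 and 6.90 in cluster 2, still the lowest and the highest of its run. The F29 lungs of run 1 lay between 4.01 and 4.11 and the T35 lungs between 4.24 and 4.59, so newborns 1 and 10 were above both ages and newborn 15 was below both. Of these 48 members, 35 were higher in T31 animal 1 than in every F29 and T35 animal of run 1, and 28 were so in animal 10. Over all 8173 genes the shares were 27.8% and 19.6%, against 72.9% and 58.3% here. In T31 animal 15 only 1 was higher than all of them and 10 were lower than all of them. These are 2.08% and 20.8%, against 14.1% and 9.29% over all genes. In run 3, against the 6 libraries of T35 and T37, 32 of the 48 were higher than every one in T31 animal 4, and 29 were lower than every one in T31 animal 18. Over all genes these were 27.3% and 35.9%, against 66.7% and 60.4% here, and genes chosen for a wide T31 spread are bound to lie outside their neighbours more often.

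Cluster 2, averaged over its 37 members without 2 levels, had the mirrored order. Its mean level was 4.56 in T31 animal 1, 4.95 in animal 10 and 6.84 in animal 15. In run 3 it was 4.50 in animal 4, 5.01 in animal 11 and 6.64 in animal 18. The clusters were cut from these same values, so the mirrored order is a description and no separate result. Not every member of cluster 2 followed it, since only 27 of the 100 members were highest in both T31 animal 15 and T31 animal 18. In T31 animal 15, 18 of the 37 members were higher than in every F29 and T35 animal of run 1, and in T31 animal 18, 25 were higher than in every T35 and T37 animal of run 3. Over all genes 14.1% and 18.8% were, against 48.6% and 67.6% here, with the same limit on what the difference can say. The third newborn of each run lay between the extremes in both clusters.

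**Figure D2:**
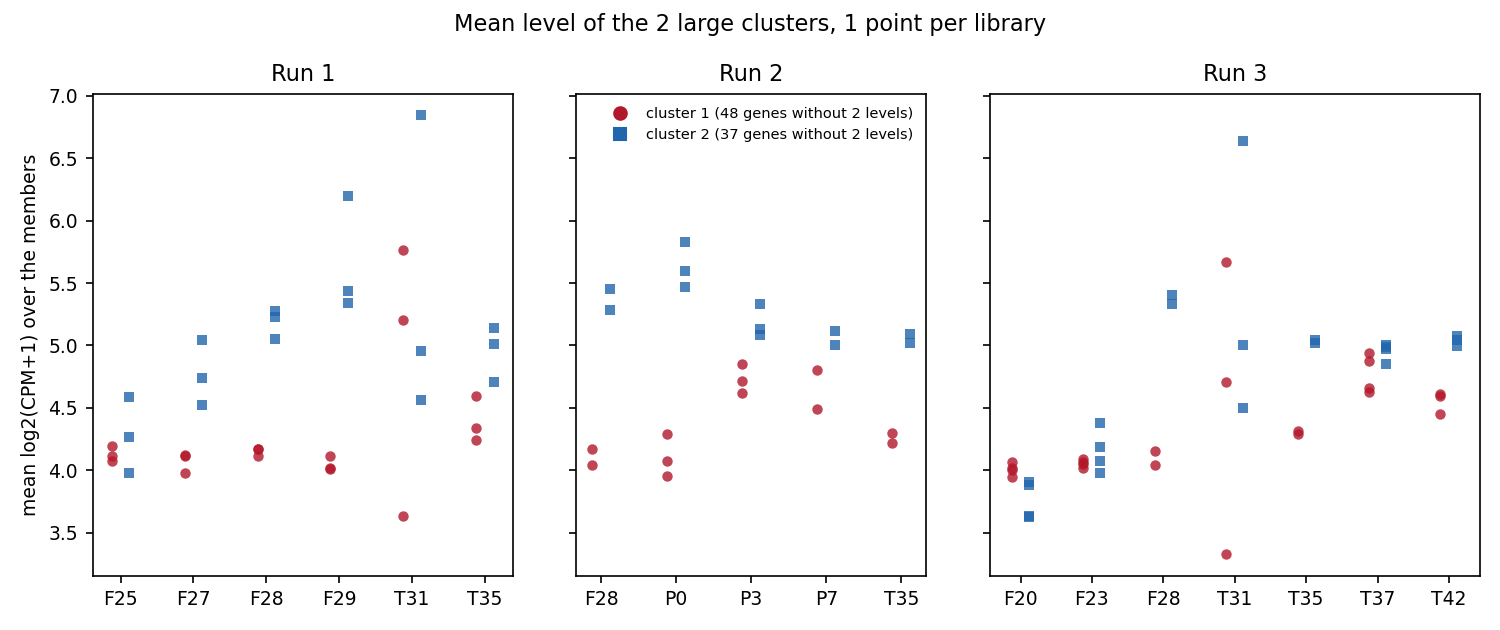
Mean level, as log2(CPM+1), of cluster 1 (circles, 48 genes) and cluster 2 (squares, 37 genes) in every library of run 1, run 2 and run 3, by group, without the members that have 2 levels. The T31 points chose the members and the clusters, so their wide span is given by that choice; among the other groups F29 animal 7 stands apart in cluster 2 at 6.20.

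The spread of the same genes was then taken at other ages. A member was called widely spread in a group when its SD there reached the threshold of 0.954, among members with a mean level of at least 2.6 in that group. At F28 19 of 87 members were widely spread, against 0.986% of all genes at that level. At F29 there were 22 of 85, against 1.09%. At T35 there were 15 of 85 against 1.70%, and at T37 16 of 90 against 1.37%. The share of members was therefore above that of all genes in each of these groups, none of which was used to choose the members. The members with 2 levels made up part of it. Without them the counts were 10 of 76 at F28, 15 of 75 at F29, 11 of 74 at T35 and 8 of 79 at T37. At T31 every member passes the threshold by the way it was chosen, so a lower share elsewhere says nothing about T31.

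The median SD of the members was 0.354 at F28, 0.484 at F29, 0.416 at T35 and 0.397 at T37. Over all genes it was 0.165, 0.155, 0.199 and 0.197 in the same order. In the preterm pups of run 2, 19 of 89 members were widely spread at P0, against 1.01% of all genes, and 11 of 90 at P3, against 0.880%. Without the limit on level, 57 of the 100 members reached the threshold SD in none of F28, F29, T35 and T37. It was reached in 1 of these groups by 22 members and in all 4 by 8.

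**Figure D3:**
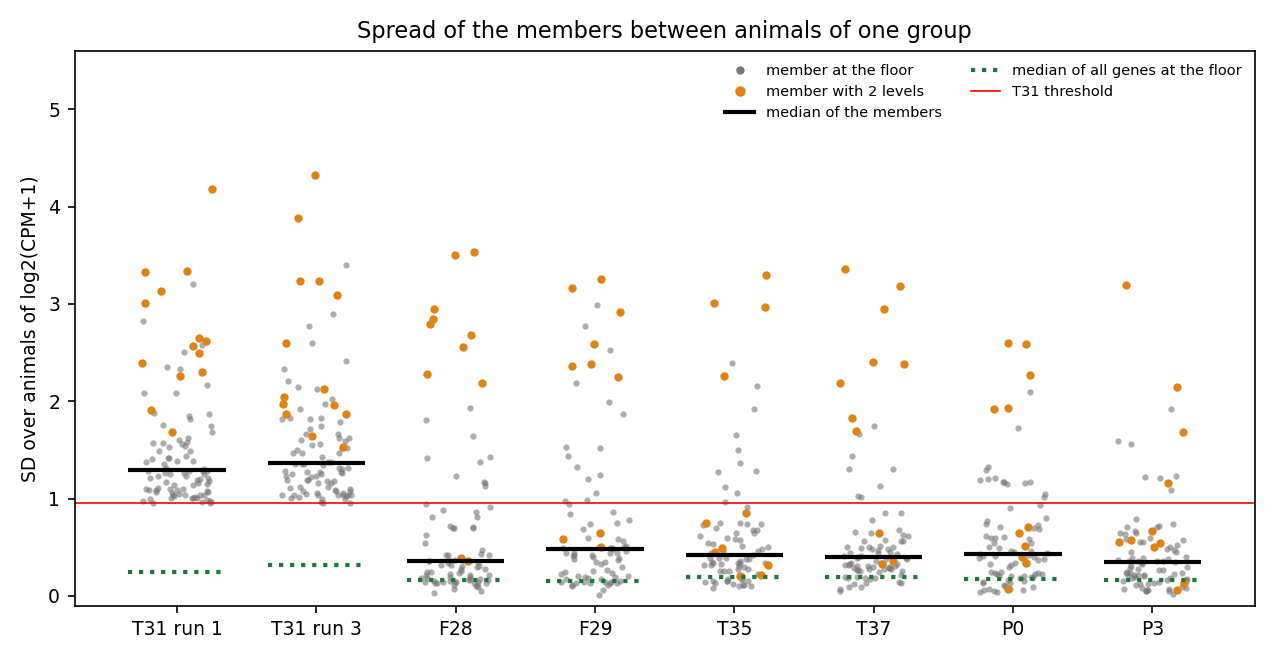
SD over animals of log2(CPM+1) for the members in the 2 T31 runs that chose them and in 6 groups that did not, each point being 1 member with a mean level of at least 2.6; orange points are members with 2 levels. Black bars mark the median of the members, which is between 0.350 and 0.484 outside T31, dotted bars the median of all genes (0.155 to 0.199 outside T31) and the red line the threshold of 0.954.

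At F29, 1 animal carried much of the spread. F29 animal 7 exceeded the mean of the other F29 animals by at least 1 on the log2 scale in 14 of the 43 members of cluster 2, and 83 of 9136 genes did so overall. The cluster 2 mean was 6.20 in this fetus against 5.44 in F29 animal 2 and 5.34 in F29 animal 11. Without F29 animal 7 the number of widely spread members at F29 went from 22 to 8.

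Away from T31 the members of clusters 1 and 2 hardly varied together. Over 13 animals of F28, F29, T35 and T37, each centred on its group, the median pairwise r was 0.07 within cluster 1 and 0.05 within cluster 2, with 0.03 over all pairs of genes. Without the members with 2 levels it was 0.080 within cluster 1, 0.075 within cluster 2 and -0.05 between these clusters. These correlations describe 13 animals that share runs and are given without a test. The pair of genes in cluster 3 had an r of 0.996, and the pair in cluster 4 had an r of -0.42, against 0.78 at T31.

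Differences between animals were compared between repeat libraries of the same animals. These were F28 animals 2 and 9, F28 animals 2 and 7, and T35 animals 6 and 11, the last in more than 1 pairing. For 5 pairings of runs, the difference in level between 2 animals in 1 run was set beside the difference between the same 2 animals in another run. Across members, Pearson's r of both differences was 0.925 to 0.980, and 0.850 to 0.965 without the members with 2 levels. Across all genes it was 0.683 to 0.789. These values are across genes, which are not independent replicates. Every member that differed by at least 1 on the log2 scale in the first run of a pairing differed in the same direction in the other run, 16 to 22 members per pairing. Among all genes that differed as much, 89.5% to 99.6% did so, so this was close to the background. No T31 animal was sequenced again.

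A smaller kind of member had 2 separate levels in the animals other than T31, with a gap between. A gene was counted as such when its levels in the 39 animals other than T31 left a gap of at least 1.5 on the log2 scale with at least 3 animals on each side, and when at least 3 groups held animals of both levels. This definition was made after the values were seen, and it uses the same animals as the counts of spread above. It was met by 14 of the 100 members and by 33 of all 8173 genes, which is 0.404%. The gap of the 14 members ranged from 1.54 to 4.51. Between 7 and 36 of the 39 animals were at the higher level. The newborns were divided at the middle of the gap, with 2 to 5 of the 6 above it. Some newborns lay inside the gap, such as T31 animal 1 for ENSOCUG00000023866.

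Each animal kept its level from library to library. In the 6 animals with repeat libraries, 15 libraries in all, each of the 84 combinations of member and animal gave the same level in every run. Of the 19 other genes that met the definition, 13 also kept their level in all 6 animals and 6 did so in none of them, so the definition also takes in genes that follow the run. Again without the limit on level, 13 of the 14 members reached the threshold SD in at least 1 of F28, F29, T35 and T37. All 4 of these groups were reached by 5 members. Among the 86 other members, 56 reached it in none of them. The definition asks for a gap inside at least 3 groups, with these 4 among those used, so the contrast is largely set by it.

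The first ranked gene of the whole list was of this kind. ENSOCUG00000022894, like the pair in the next paragraph, was picked for description after its values were seen. Its level in run 1 was 5.71 in T31 animal 1, 5.86 in animal 10 and 0.00 in animal 15, and in run 3 it was 6.86 in animal 4, 7.98 in animal 11 and 0.00 in animal 18. The newborns thus fell into 4 with the transcript and 2 with no read of it. Among the other animals 11 of 39 were high, at 5.54 or more, and 28 were low, at 1.84 or less. T35 animal 11 was high in run 1, run 2 and run 3, with 5.50, 6.58 and 6.50, and T35 animal 6 was low in the same runs, with 0.50, 0.00 and 0.00.

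ENSOCUG00000012678, ranked 2, and ENSOCUG00000005772, ranked 6, formed cluster 3. ENSOCUG00000012678 had levels of 6.79, 0.93 and 5.79 in T31 animals 1, 10 and 15, and of 1.32, 7.76 and 0.80 in T31 animals 4, 11 and 18. ENSOCUG00000005772 had 5.64, 0.68 and 4.65 in the first 3 of these and 1.24, 6.76 and 1.08 in the others. Both genes were on the same side of the middle of their gap in 45 of 45 animals. Of the 39 animals other than T31, 27 were at the higher level. The next most alike pair of members with 2 levels shared its side in 38 of 45 animals. Whether reads are divided between near-identical copies of these genes was not tested.

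**Figure D4:**
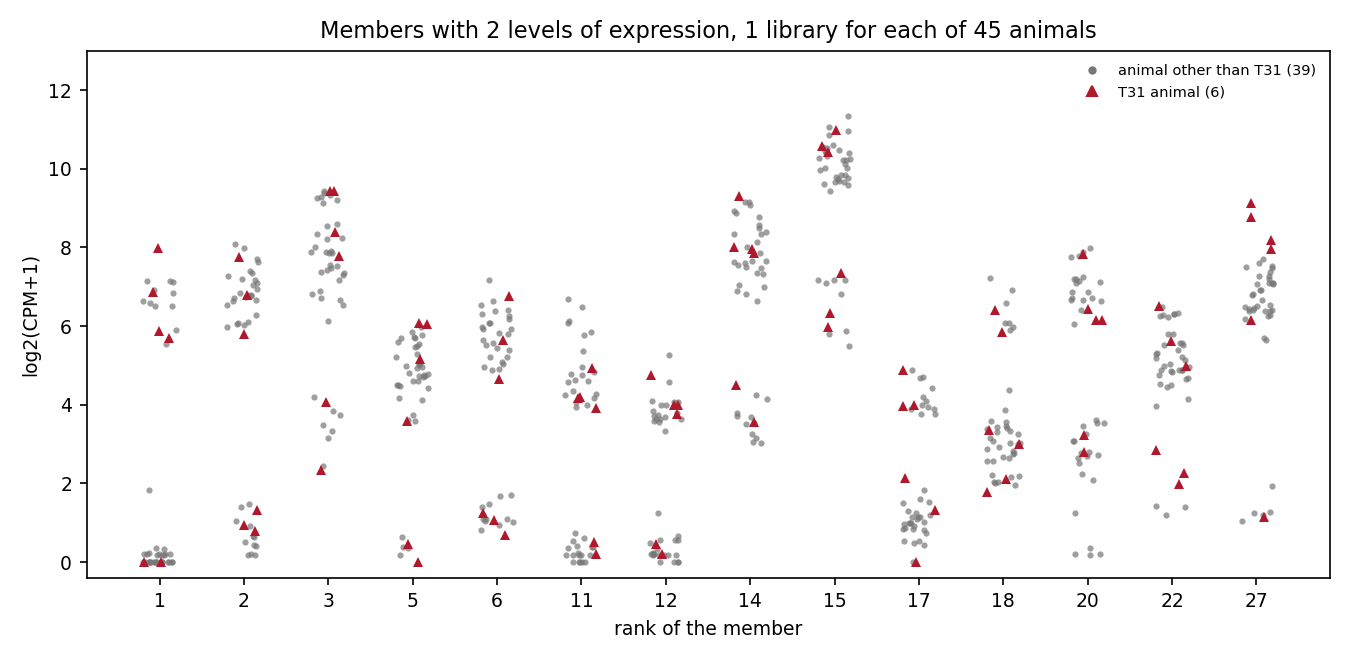
Level, as log2(CPM+1), of the 14 members with 2 levels in 1 library of each of 45 animals, by rank of the member; triangles are the 6 T31 newborns and circles the 39 other animals. In each column the circles form an upper and a lower group with a gap of at least 1.54 between them. The triangles did not set the gap and fall on both sides of its middle, some of them inside it.

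The levels of the members were then compared between ages in libraries that played no part in choosing them. Each comparison stayed within 1 run and used the quasi-likelihood test of edgeR on the counts, and a gene was called at more than a 2-fold difference with an adjusted p of at most 0.05 over all genes tested. Fold changes are given as log2 with their standard errors. No member with 2 levels was called by edgeR in any of the 4 comparisons, with 1 to 3 of the 13 or 14 tested at an unadjusted p under 0.05. By limma-voom none was called either, and by DESeq2 1 was called in T35 against F29 and 1 in T37 against T35. With 0.218% to 3.59% of all genes called, 13 or 14 genes would hold fewer than 1 call at the share of all genes, and nothing is read from the count of 0.

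From F29 to T35, that is from late gestation to 4 days after term birth, 17 of 100 members were called, against 3.59% of the 13764 genes tested. Of these 12 were higher at T35, against 2.06% of all genes, and 5 were lower, against 1.53%. Cluster 1 held 11 of the members that rose and 1 that fell. Cluster 2 held 1 that rose and 4 that fell. The median log2 fold change was 0.29 over cluster 1 and -0.23 over cluster 2, and it was 0.02 over the 8173 genes at the T31 level limit.

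ENSOCUG00000015320 of cluster 1 had levels of 4.19, 3.62 and 3.42 at F29 and of 6.77, 6.85 and 6.56 at T35. Its log2 fold change was 3.13 ± 0.20 (SE), with an adjusted p of 5.51e-05 by edgeR. ENSOCUG00000000657, also of cluster 1, rose from 0.00, 1.15 and 1.04 to 3.35, 3.96 and 3.36, a log2 fold change of 3.88 ± 0.65 with an adjusted p of 0.00591 by edgeR. In the newborns of run 1 the latter gene was at 5.67, 4.75 and 1.25, so that 2 of them were above every T35 lung and the third was close to the F29 lungs. In run 3 its read counts were 226, 39 and 2 in T31 animals 4, 11 and 18, with 1 newborn well above the others. These T31 values helped choose the members and are a description.

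The strongest falls were in cluster 2, in genes that did not follow the order of its mean at T31. Both genes had most reads in T31 animals 1 and 4 and fewest in animals 10 and 11. ENSOCUG00000028083 had levels of 5.21, 3.85 and 4.72 at F29 and of 0.62, 0.00 and 0.50 at T35, where it was nearly without reads. The fitted log2 fold change was -6.12 ± 0.73 with an adjusted p of 0.0012 by edgeR, and its size depends on the small count that edgeR adds. ENSOCUG00000013068 had 9.71, 8.85 and 8.82 at F29 and 3.12, 0.19 and 4.42 at T35, a log2 fold change of -5.86 ± 0.88 with an adjusted p of 0.00351 by edgeR. The newborns of run 1 had 9.69, 5.29 and 8.94 of this transcript, 2 at the fetal level and 1 well below it but above all T35 lungs. In run 3, which had no F29 library, the read counts were 3426, 588 and 1089 in T31 animals 4, 11 and 18. There 1 newborn was high and 2 were lower. The T31 values helped choose the members and are a description.

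From T35 to T37 in run 3, between 4 and 6 days after birth, 7 of 100 members were called, against 2.81% of 13460 genes. There were 3 that rose, against 1.57%, and 4 that fell, against 1.24%. Cluster 1 held the 3 that rose and 1 that fell, and cluster 2 held the 3 others that fell. ENSOCUG00000022858 of cluster 1 was at 0.71 and 1.30 at T35 and between 3.53 and 4.05 in the 4 T37 lungs, with a log2 fold change of 3.41 ± 0.36 and an adjusted p of 0.00169 by edgeR. ENSOCUG00000012493 of cluster 2 was at 4.26 and 3.91 at T35 and between 1.98 and 2.48 at T37, with a log2 fold change of -2.28 ± 0.26 and an adjusted p of 0.0022 by edgeR. Neither gene overlapped between the groups, but both were picked for their fold change and the share of all genes without overlap was not counted. Only 2 T35 libraries were in this run, and without T35 animal 6 the number of called members was 3, and without T37 animal 47 it was 4.

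ENSOCUG00000009699 of cluster 1 rose less surely, from 3.28 and 2.28 to 4.81, 3.48, 4.66 and 4.86, with a log2 fold change of 1.67 ± 0.45 and an adjusted p of 0.0391 by edgeR. Leaving out either T35 animal, or T37 animal 12, 46 or 47, ended that call. ENSOCUG00000007018 of cluster 2 was called lower, at -1.52 ± 0.36 with an adjusted p of 0.0264 by edgeR. T35 animal 6, at 7.72, lay among the T37 lungs, at 7.63 to 7.74, and only T35 animal 11 was higher, at 9.69. Without T35 animal 11 the log2 fold change was -0.20 and no longer called, and it was also not called without T37 animal 46 or 47. In the newborns ENSOCUG00000007018 stood at 7.49 in T31 animal 1 and 7.96 in T31 animal 4, and between 9.55 and 9.95 in the 4 others.

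**Figure D5:**
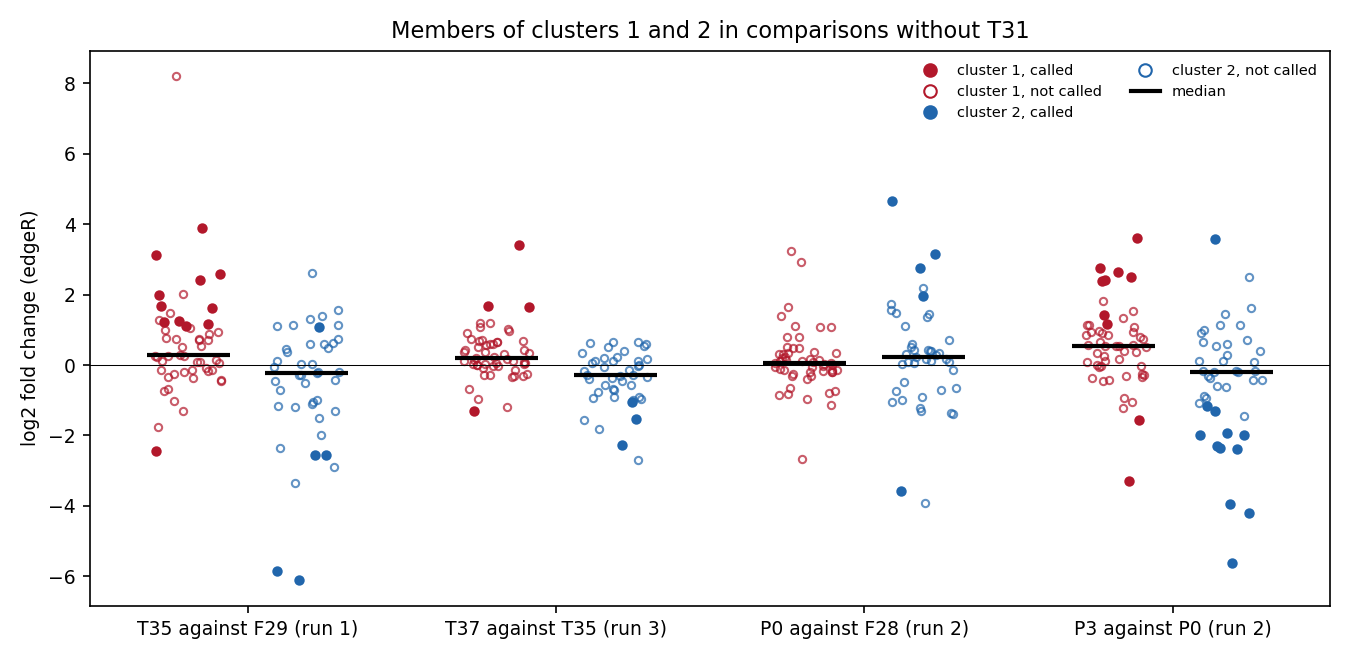
Fitted log2 fold change (edgeR) of each tested member of cluster 1 (red) and cluster 2 (blue) in the 4 comparisons, none of which used T31 libraries; filled points were called and black bars are medians. In T35 against F29 and in P3 against P0 most filled red points lie above 0 (11 of 12 and 8 of 10) and most filled blue points below it (4 of 5 and 11 of 12).

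After 1 h of preterm life few genes were called, and the called members were all in cluster 2. Between F28 and P0 in run 2, 5 of 99 members were called, against 0.218% of 13791 genes, while 1 member was under the filter on low counts. Of these 4 rose, against 0.181% of all genes, and 1 fell, against 0.0363%. The median log2 fold change was 0.22 over cluster 2 and 0.07 over cluster 1, none of whose 52 tested members was called by edgeR, with 7 of them at an unadjusted p under 0.05. DESeq2 called 4 of these 52 and limma-voom none. ENSOCUG00000023019 was at 1.94 and 1.24 in the F28 lungs and at 6.02, 3.91 and 6.25 at P0, with a log2 fold change of 4.65 ± 0.68 and an adjusted p of 0.022 by edgeR. At T31 this gene was at 7.27 and 6.77 in animals 15 and 18 and at 1.76 to 3.37 in the 4 other newborns.

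ENSOCUG00000003905 of cluster 2 was at 5.42 and 6.02 in F28 and between 7.25 and 9.47 in the 3 P0 lungs, with a log2 fold change of 3.14 ± 0.52 and an adjusted p of 0.0342 by edgeR. Its T31 levels were also highest in animals 15 and 18, at 10.77 and 10.07. The T31 levels of these genes helped choose the members and are a description. ENSOCUG00000021375, the only member that fell, was at 6.68 and 6.89 in F28 and at 3.13, 3.18 and 3.55 in P0, with a log2 fold change of -3.58 ± 0.63 and an adjusted p of 0.039 by edgeR. At T31 it had most reads in animals 10 and 11, with counts of 146 and 482, against 130 and 147 in animals 15 and 18. None of these 3 genes overlapped between F28 and P0. They were picked for their fold change, and the share of all genes without overlap was not counted. With 2 F28 libraries in the run the calls were fragile: without F28 animal 9 no member was called by edgeR, although 20 members and 1108 of all genes tested had an unadjusted p under 0.05. The count was 3 without F28 animal 2 or P0 animal 4, and 1 without P0 animal 3. The call of ENSOCUG00000021375 ended without any single library of either group, and those of the other genes named ended without P0 animal 3 or either F28 animal, that of ENSOCUG00000003905 also without P0 animal 4. With limma-voom these 3 genes had adjusted p values of 0.228, 0.09 and 0.0905 in the order named and were not called. Fitted on the 2 groups alone, ENSOCUG00000023019 and ENSOCUG00000003905 were not called either, with adjusted p values of 0.101 and 0.126 by edgeR.

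During the next 3 days of preterm life, from P0 to P3, 22 of 99 members were called, against 2.52% of 13791 genes. The 9 that rose compare with 1.83% of all genes, and the 13 that fell compare with 0.689%. Cluster 1 held 8 that rose and 2 that fell, and cluster 2 held 1 that rose and 11 that fell. The median log2 fold change was 0.54 over cluster 1 and -0.20 over cluster 2, and -0.01 over the genes at the T31 level limit. This comparison shares the P0 libraries with the one before it, so a high or low P0 library enters both with opposite sign, and the 2 sets of values are given side by side only.

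ENSOCUG00000028083 and ENSOCUG00000013068 again had the largest falls. ENSOCUG00000028083 went from 3.52, 3.12 and 4.19 at P0 to 0.64, 0.18 and 0.00 at P3, with a log2 fold change of -5.63 ± 0.82 and an adjusted p of 0.00209 by edgeR. ENSOCUG00000013068 went from 6.58, 5.98 and 6.89 to 2.08, 2.64 and 2.93, with a log2 fold change of -4.20 ± 0.70 and an adjusted p of 0.00442 by edgeR. Neither gene overlapped between P0 and P3, with the same limit from how they were picked. Both had also been called lower at T35 than at F29.

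Among the members that rose, ENSOCUG00000021375 of cluster 2 returned from 3.13, 3.18 and 3.55 at P0 to 6.44, 7.46 and 6.02 at P3, with a log2 fold change of 3.58 ± 0.60 and an adjusted p of 0.00454 by edgeR. ENSOCUG00000004625 of cluster 1 was at 2.33, 2.93 and 2.85 at P0 and at 3.36, 6.01 and 7.09 at P3, a 12.1-fold difference with an SE of 0.79 on the log2 scale and an adjusted p of 0.0209 by edgeR. P3 animal 1 was thus only slightly above the P0 lungs for this gene, and the call ended without any single P0 animal or without P3 animal 3. With limma-voom its adjusted p was 0.217.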

How the data were processed

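The deposited table held raw counts of reads per Ensembl gene, which the authors made by checking reads with FastQC, trimming with BBduk, aligning to OryCun2.0 with STAR and counting with HTSeq, whose versions are not given in the sources used here. Whether the counts include the reads that the study assigned to unannotated 3′ UTRs is not stated. All 54 columns matched a sample, 0 columns were of no sample and 0 pairs of libraries were identical. None of the 29587 identifiers matched the reference table of gene symbols (0 matches), so prepared lists of pathway genes and cell type markers could not be applied. The members, lists and tests were chosen with earlier results of these data known.

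Levels were log2(CPM+1) on the column totals. Age comparisons were fitted within 1 run, since runs differ and T31 was read in 2 of them. F29 and T35 were fitted with F28 in run 1, T35 and T37 with T42 in run 3, and F28, P0 and P3 with P7 and T35 in run 2, with 1 library per animal. Genes reaching 0.5 CPM in 3 or more libraries of a fit were kept, scaled by TMM and tested on the counts with the quasi-likelihood test of edgeR 4.0.16 (R 4.3.3), with Benjamini-Hochberg adjustment over all genes tested. The standard error is the log2 fold change divided by the square root of its F statistic. Alternatives were DESeq2 1.42.0, limma-voom (limma 3.58.1), other scaling and filters, other pseudocounts and leaving out each library.

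Named genes were to be the 20 highest ranked members with a symbol, up to 4 members of each list, up to 5 called members of each comparison and those next to the threshold. Without symbols only the called members could be named, and of these the 2 with the largest rise and the 2 with the largest fall in each comparison are given. Depth was 5771693 to 8073755 counted reads per library.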

Additional observations from a re-analysis of the deposited data

Results flagged for a closer look

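In the 4 T37 animals, the highest or lowest animal was compared with the others by Dixon's ratio for 14 measures, the 12 named genes of the age comparisons and the means of clusters 1 and 2, and 2 passed the critical value of 0.829. Chance flags about 1 in 20 groups. ENSOCUG00000009699 was at 3.4761 in T37 animal 27, with the nearest of the other animals at 4.655 and the farthest at 4.8587, a ratio of 0.853. ENSOCUG00000007018 was at 7.7398 in T37 animal 12, with the others between 7.6284 and 7.6442, a ratio of 0.858 within a narrow range.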

How the results depend on the processing

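Of the 4 counts of called members, that of T35 against F29 (17) stayed within a factor of 1.5 under every alternative run, with 12 to 17 when single libraries were left out. T37 against T35 (7) ranged from 3 to 9 on leaving out single libraries, with 4 without T37 animal 47 and 3 without T35 animal 6. P0 against F28 (5) became 13 with DESeq2, 1 with limma-voom and 21 with no filter on low counts, and ranged from 0 to 5 on leaving out single libraries. P3 against P0 (22) became 36 with no filter and 17 to 22 on leaving out single libraries, and 19 with the replicate block, where only animals 1 and 3 share a number between the groups and their deviations from the group means correlated at 0.104 and 0.020 across genes. Under that block ENSOCUG00000004625 was no longer called (adjusted p 0.17 by edgeR). All genes called in P0 against F28 numbered 30 with edgeR, 96 with DESeq2 and 156 with no filter, and in P3 against P0 348 with edgeR, 574 with no filter and 222 with the replicate block. The cause of these shifts was not tested.

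Widely spread members ranged from 15 to 18 at F28, 8 to 21 at F29 (8 without F29 animal 7), 12 to 14 at T35 and 11 to 15 at T37 on leaving out single animals. At F28 the count went from 19 to 12 with the run 2 libraries of 2 animals. Of the 100 members, 94 stayed with TMM-scaled totals, 93 with a pseudocount of 0.5 and 65 with a floor of 3.6, which removes members of low level. A gap of at least 1 for members with 2 levels, an alternative chosen after seeing the data, gave 17 members and 68 of all genes. The 15 fold changes named kept their direction in 174 of 174 refits and were still called in 138 of them, and that of ENSOCUG00000028083 in P3 against P0 was lost with limma-voom alone (adjusted p 0.0738). Groups of 2 to 4 animals limit every SD and test here.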
